A study of Mus musculus with 48 samples.

Results

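The genes described here mark T cells and the intraepithelial lymphocytes of the gut. The list names 43 genes, and its members were found as the rows of the deposited count table whose Ensembl ID carries that symbol in a GENCODE annotation of mm10. All 43 matched a row, and 38 of them passed a filter on low counts that kept 15646 of the 55401 gene IDs. RNA was sequenced from the jejunum, which lies between duodenum and ileum, of mice kept in constant darkness. Control mice carried floxed Bmal1 alleles (bmal1fl/fl), and knockout mice were written Bmal1iec-/-, a loss of Bmal1 aimed at the intestinal epithelium. The samples were whole jejunal tissue, so they held lymphocytes, in which no deletion was aimed, beside the epithelium. Neither the driver of the deletion nor the age of the mice is given in the sources used here. Tissue was taken at 6 circadian times, from CT1 to CT21 at steps of 4 hours of the animals' own cycle, with 4 libraries per genotype and time. Knockout CT9 had 3 libraries, since 1 of the 48 labelled libraries was not analysed here.

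T cells recognise antigen through the T cell receptor, whose signal passes through the CD3 chains to the kinases Lck and Zap70 and the scaffold Lat. Intraepithelial lymphocytes are mostly CD8+ T cells with alpha-beta or gamma-delta receptors that sit between the enterocytes, hold on to E-cadherin through the integrin CD103 (Itgae with Itgb7) and store granzymes. Their homing and upkeep depend on signals from the epithelium, among them the chemokine Ccl25 and the cytokines Il15 and Il7. In bulk tissue, fewer cells of a type and less RNA per cell cannot be told apart.

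Total counts were 4.34 to 6.91 M per library, with a median of 5.43 M. In what follows M stands for 1e6 counts, and CPM is the count per M of the genes kept, after scaling of the libraries. A member with a mean of about 5 counts per library, such as Cd8b1 or Prf1, was therefore measured with less precision than Gzma, which had a mean of 387. Arntl, the gene symbol of Bmal1, had group means from 10.4 ± 1.34 CPM at CT9 to 78.4 ± 11.3 CPM at CT21 in control (SD, n = 4 each) and means of 27.3 to 31.4 CPM in knockout. An earlier analysis of these counts set 5 libraries apart by wide departures from the median library and by lower values of long genes. They were replicates 1 to 3 of knockout CT1, replicate 4 of knockout CT21 and replicate 1 of control CT21. Some counts without these 5 libraries are given below. They are not given for every time, CT21 among those left out, nor for the counts of libraries that did not overlap.

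The members were lower in the knockout nearly throughout. In the mean over the 6 times, 37 of the 38 fell and 0 rose (edgeR's quasi-likelihood test, Benjamini-Hochberg adjusted p under 0.05 over all genes), where 11.0% of all genes tested fell and 12.2% rose. The exception was Xcl1. Of the 38, 29 reached the level that the filter asks for in enough knockout libraries as well, and all 29 of these fell (median log2 fold change −1.06). The other 9 passed the filter through control libraries alone, so that a higher level in control was part of how they came to be tested, and they are no support for the count. They were Cd247, Cd8b1, Cd5, Cd69, Prf1, Fasl, Cxcr3, Tbx21 and Xcl1. The same limit holds wherever these 9 enter a count by size, role or time below. Without the filter, 39 of the 42 members with any count fell and 0 rose. The median log2 fold change (knockout minus control) of the 38 was −1.06, with a range from −1.64 to −0.22, and the median of all genes was −0.01. Of the 38, 22 were at least 2-fold lower, a drop that 183 genes or 1.17% of all genes shared. Among the 22 were Cd247, Cd8b1, Cd5, Cd69, Prf1 and Cxcr3, which passed the filter through control libraries alone. Knockout means lay below control means at all 6 times in 37 members. The count of 37 was the same whichever library was left out, and it was 36 without the 5 libraries, when Fyb was lost (log2 fold change −0.21, adjusted p = 0.0734).

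A score described the same values by library. It was the mean over the 38 members of log2 CPM less each member's mean over the 12 groups. The score includes the 9 members kept through control libraries alone, so it is no further support for the counts above. The 24 control libraries had a mean score of 0.459 (range −0.486 to 1.13, SD 0.383). The 23 knockout libraries had a mean of −0.460 (range −0.782 to −0.218, SD 0.187). All 23 knockout libraries lay below 0, and 23 of the 24 control libraries lay above every knockout library. The group means of control were lowest at CT13 (0.237 ± 0.282) and highest at CT21 (0.709 ± 0.0935), and those of knockout were lowest at CT13 (−0.590 ± 0.256) and highest at CT21 (−0.306 ± 0.0731; SD, n = 4 each).

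**Figure D1:**
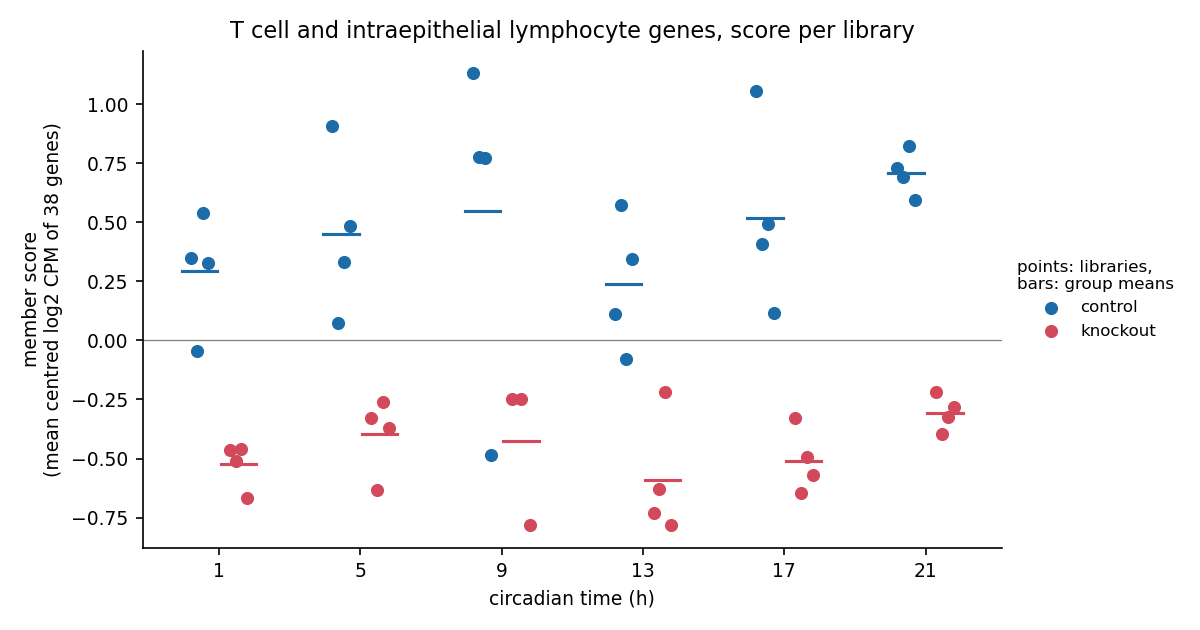
Score of the 38 members (mean centred log2 CPM, y axis) in each library against circadian time in hours (x axis), with control in blue, knockout in red, a point per library and a bar at each group mean. The knockout libraries lie between −0.782 and −0.218, and the control libraries lie above them except for control CT9 replicate 4 at −0.486.

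The exception was control CT9 replicate 4, with a score of −0.486 against 0.771, 0.776 and 1.13 in the other CT9 controls. In that library 35 of the 38 members lay below every other CT9 control. Its Arntl level of 10.6 CPM lay within the other CT9 controls (8.48 to 11.3 CPM) and below the CT9 knockouts (26.1 to 31.8 CPM), so it carried the clock gene level of its label. Cd74, the invariant chain of MHC class II, stood at 424 CPM there against 1300.5 to 1860.3 CPM in the other CT9 controls, and the epithelial adhesion gene Epcam at 1242 CPM against 1066 to 1393 CPM. The library was kept. Without it the mean over times still gave 37 members lower.

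Within a group, the library with the highest score held the highest level of a varying number of members. The score is the mean of these same members, so some sharing is built in. The counts are a description and test nothing. In control CT17 replicate 1, which had the highest score of its group, 33 of the 38 members were at their highest of the 4 libraries. The library with the highest score held the highest level of 29 members at CT5, 25 each at CT9 and CT13, 20 at CT1 and 13 at CT21 in control. In the knockout the same count was 11 at CT1 and CT5, 18 of 38 at CT9 among 3 libraries, 25 at CT13, 19 at CT17 and 13 at CT21. Counts of 11 or 13 of 38 among 4 libraries are not far from an even spread. Ptprc and Fyb, whose annotated exons span 18313 and 5384 bases, were low in some of the libraries set apart while Xcl1, with 523 bases, was high. Lower values of long genes were part of how those libraries were set apart, so this restates that choice. In control CT21 replicate 1, Ptprc lay at −0.96 and Fyb at −0.81 from their means on the log2 scale, and Xcl1 at 0.77. In knockout CT21 replicate 4 the values were −1.45 for Ptprc, −1.25 for Fyb and 0.99 for Xcl1. In control CT21 replicate 1 and knockout CT21 replicate 4, Txk (10955 bases) was also low, at −0.21 and −1.06. Not all long members went this way, since Cd6 (7968 bases) lay at 0.63 and 0.14 there.

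**Figure D2:**
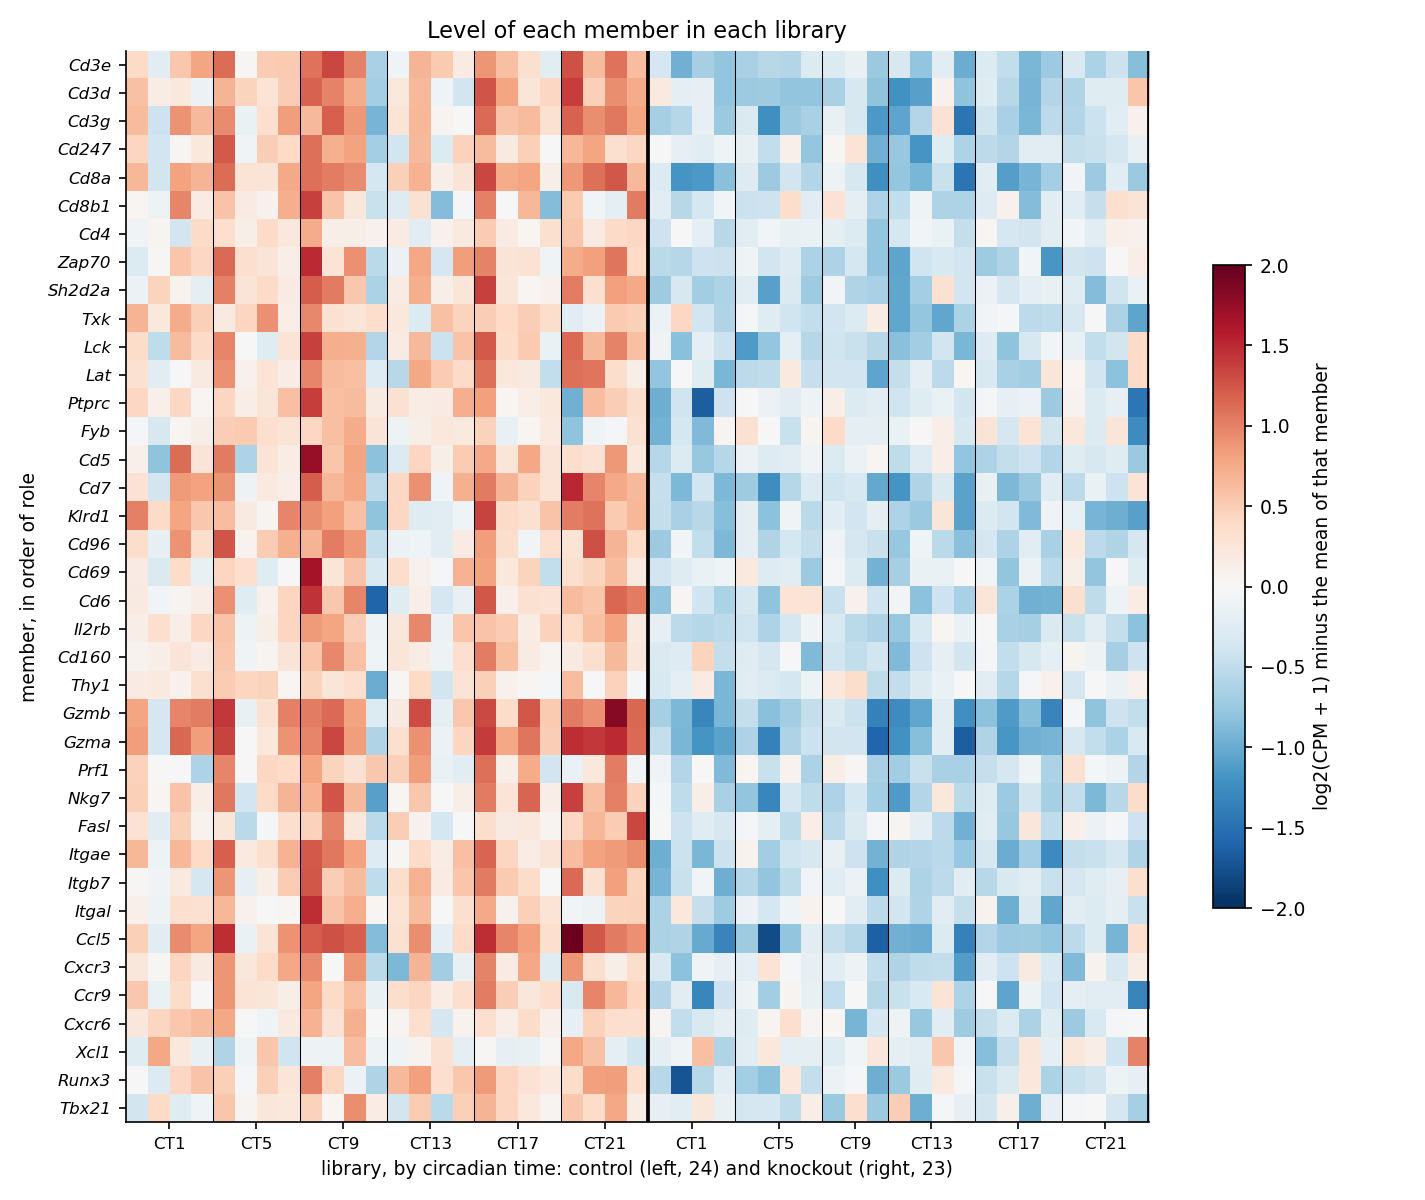
Level of each of the 38 members (rows, in order of role) in each of the 47 libraries (columns, by circadian time, control left of the heavy line), as log2(CPM + 1) minus the mean of that member over all libraries. Control columns are mostly red and knockout columns mostly blue, and the last control column at CT9 is blue for most members.

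The chains of the T cell receptor complex fell to about the same degree. Cd3e encodes the epsilon chain and lies on chromosome 9, positions 44998740 to 45009627 of mm10 (minus strand). Its level in control had a lowest value of 2.86, a median of 7.96 and a highest value of 14.3 CPM, and in knockout 2.03, 3.02 and 4.45 CPM. At CT21 the control libraries held 13.6, 8.38, 11.8 and 8.27 CPM and the knockout libraries 3.87, 2.89, 3.48 and 2.34 CPM. Control was higher in every library at that time, and 21 of the 24 control libraries lay above every knockout library of any time. The log2 fold change was −1.35 (SE 0.14, adjusted p = 3.03e-10). Cd3d (−1.35) and Cd3g (−1.24), the delta and gamma chains encoded next to each other at positions 44981786 to 44987339 and 44969572 to 44980431 of that chromosome, fell likewise. Cd247, the zeta chain, fell by 1.14 on the log2 scale. Of its exonic bases 60.3% are shared with exons of other genes, mostly on the opposite strand, and the strand setting of the counting is not given, so its counts are uncertain.

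The coreceptors split. Cd8a, the alpha chain of CD8 on chromosome 6 (positions 71373427 to 71379173, plus strand), had a lowest, median and highest level of 12.2, 26.9 and 41.9 CPM in control and 5.18, 9.32 and 15.5 CPM in knockout. At CT13 the control libraries held 22.6, 26.4, 17.4 and 19.3 CPM and the knockout libraries 8.92, 8.03, 11.6 and 5.18 CPM. The groups did not overlap at CT13, nor at CT5, CT17 and CT21, and 22 of the 24 control libraries lay above every knockout library. Cd8a fell by 1.38 on the log2 scale (SE 0.13, adjusted p = 2.58e-11), to 38.3% of control. Cd8b1, the beta chain at positions 71322788 to 71337494 of that chromosome, had few counts. The lowest, median and highest level were 0, 1.04 and 3.71 CPM in control and 0, 0.552 and 1.32 CPM in knockout, and the libraries overlapped at every time. It fell by 1.12 (SE 0.31, adjusted p = 0.00625) and missed the threshold with limma-voom (−0.88, adjusted p = 0.0516). Per kb of annotated exon, the level of Cd8a exceeded that of Cd8b1 in both genotypes (7.34 against 0.880 CPM per kb in control, 2.80 against 0.393 in knockout). CD8 alpha-alpha pairs without the beta chain are a known trait of many intraepithelial lymphocytes.

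Cd4, the coreceptor of helper T cells that some dendritic cells also carry, lies on chromosome 6 at positions 124864692 to 124888221 (minus strand). Its level had a lowest, median and highest value of 8.41, 12.7 and 19.2 CPM in control and 6.10, 9.69 and 12.1 CPM in knockout. At CT21 the control libraries held 16.8, 12.6, 14.9 and 15.2 CPM and the knockout libraries 10.7, 9.48, 12.1 and 11.9 CPM, the nearest of them close to each other. The genotypes did not overlap at CT5, CT9 and CT21 and overlapped at the other times. Cd4 fell by 0.46 on the log2 scale (SE 0.07, adjusted p = 2.7e-06), to 72.5% of control. As a description chosen after the values were seen, the ratio of Cd8a to Cd4 counts within a library had a median of 1.98 in control (1.03 to 3.38) and 1.03 in knockout (0.588 to 1.60), and its group means were lower in knockout at all 6 times.

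All 7 members of proximal T cell receptor signalling that passed the filter fell. The kinase Zap70 (−1.26), the adaptor Sh2d2a (−1.16), the Tec kinase Txk (−1.06), the kinase Lck (−1.06) and the scaffold Lat (−1.0) fell most. Ptprc, the phosphatase CD45 of all leukocytes, fell by 0.71. Fyb, an adaptor that links the receptor to integrins and is also made by myeloid cells, lies on chromosome 15 at positions 6522853 to 6663313 (plus strand). In control it had a lowest, median and highest level of 7.37, 15.8 and 23.5 CPM, and in knockout 5.15, 12.4 and 18.2 CPM, and the genotypes overlapped at every time. Its change was among the 3 smallest of the 38 members that passed the filter (−0.31, SE 0.10, adjusted p = 0.0231). The summed level of the signalling members was 76.7 to 218 CPM in control libraries and 38.4 to 92.6 CPM in knockout libraries.

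Of the surface glycoproteins, all 9 that passed the filter fell. Cd5 (−1.51), which damps receptor signals, and its relative Cd6 (−0.99) both lie on chromosome 19 and fell. Cd7 (−1.25) and the killer lectin-like receptor Klrd1 (−1.24), known from natural killer cells and cytotoxic T cells, fell by more than the 2-fold mark, as did Cd96 (−1.06), a receptor that binds CD155, and the activation and residency marker Cd69 (−1.01). Il2rb (−0.88), the beta chain shared by the receptors of Il2 and Il15, had 21 of 24 control libraries above every knockout library. Cd160, a receptor of cytotoxic intraepithelial cells, fell by 0.77. Thy1, a surface protein of T cells that fibroblasts and neurons also make, lies on chromosome 9 at positions 44043384 to 44048579 (plus strand). Its level had a lowest, median and highest value of 3.03, 8.33 and 11.3 CPM in control and 3.24, 6.04 and 9.20 CPM in knockout, so that the lowest library of all was the control CT9 library named above. Thy1 fell by 0.40 (SE 0.11, adjusted p = 0.00354).

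All 5 cytotoxic effector genes fell. The granzymes were, with the chemokine Ccl5, the 3 members with the largest changes among the 38 that passed the filter. Gzma and Gzmb encode granzymes, proteases that induce death in target cells. Gzma lies on chromosome 13 at positions 113093825 to 113100981 (minus strand) and was the highest member per length in control (107 CPM per kb of exon). Levels ran from 38 over a median of 108 to 166 CPM in control and from 17.9 over 37.6 to 50.5 CPM in knockout. At CT21 the control libraries held 165, 157, 166 and 130 CPM and the knockout libraries 46.6, 41.3, 37.6 and 47.3 CPM. The groups did not overlap at any time but CT9. Gzma fell by 1.61 on the log2 scale (SE 0.14, adjusted p = 3.23e-11), to 32.7% of control.

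Gzmb, on chromosome 14 at positions 56258838 to 56262260 (minus strand), was the member whose libraries separated at all 6 times. At CT1 the control libraries held 44.8, 20.0, 51.3 and 53.1 CPM and the knockout libraries 15.7, 13.2, 9.75 and 13.1 CPM. At CT9 they held 52.8, 56.8, 45.4 and 21.0 CPM in control and 20.8, 18.7 and 9.42 CPM in knockout, where the margin between the groups was narrow because of control replicate 4. At CT17 the control libraries held 65.4, 33.0, 61.6 and 37.0 CPM and the knockout libraries 13.9, 11.1, 13.8 and 9.59 CPM, a gap of more than 2-fold between the nearest libraries. Gzmb fell by 1.64 (SE 0.15, adjusted p = 3.33e-11), the largest fall among the 38 members that passed the filter. The granule protein Nkg7 fell by 1.19. The pore-forming protein perforin, Prf1, fell by 1.44 with means of 1.4 in control and 0.530 CPM in knockout, and the death ligand Fasl by 0.98. Both had few counts and passed the filter through control libraries alone.

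**Figure D3:**
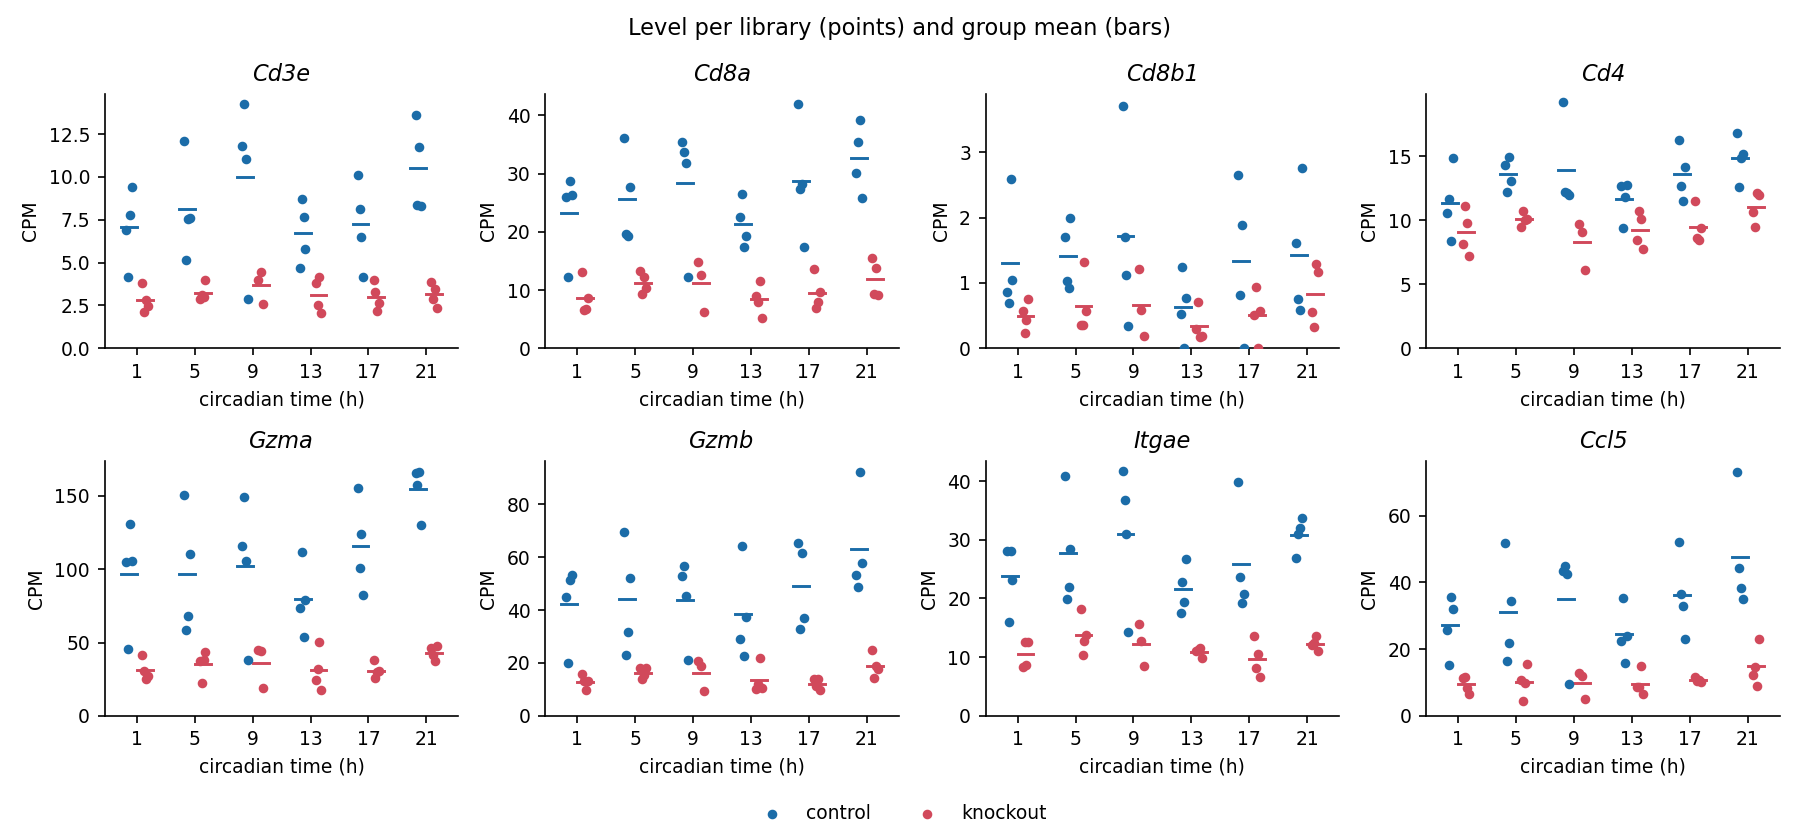
Level (CPM, y axis from 0) of 8 members in each library against circadian time in hours (x axis), with control in blue, knockout in red, a point per library and a bar at each group mean. Gzmb separates the genotypes at all 6 times, whereas Cd8b1 overlaps at every time and Cd4 moves less than Cd8a.

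The 3 integrin chains fell. Itgae, the alpha chain of CD103 on chromosome 11 (positions 73090583 to 73147446, plus strand), had a lowest, median and highest level of 14.3, 26.9 and 41.7 CPM in control and 6.58, 11.6 and 18.2 CPM in knockout. At CT21 the control libraries held 26.9, 31.0, 31.9 and 33.7 CPM and the knockout libraries 12.2, 12.4, 13.6 and 11.0 CPM. The groups separated at every time but CT9, where control replicate 4 (14.3 CPM) fell inside the knockout range. Itgae fell by 1.21 (SE 0.11, adjusted p = 7.25e-12), to 43.3% of control. Itgb7, its beta chain, which also pairs in the gut-homing integrin alpha4-beta7, fell by 0.91, and Itgal, the alpha chain of LFA-1 on many leukocytes, by 0.73.

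Of the chemokines and chemokine receptors, 4 of 5 fell. Ccl5, a chemokine released by cytotoxic T cells, lies on chromosome 11 at positions 83525778 to 83530518 (minus strand). Its level had a lowest, median and highest value of 9.43, 34.8 and 73.0 CPM in control and 4.54, 10.6 and 23.2 CPM in knockout. At CT17 the control libraries held 52.0, 36.5, 32.9 and 23.1 CPM and the knockout libraries 11.7, 10.5, 10.6 and 10.2 CPM, with no overlap. Ccl5 fell by 1.62 (SE 0.17, adjusted p = 1.27e-09). The receptors fell less: Cxcr3, which binds Cxcl9 and Cxcl10, by 1.13, the gut-homing receptor Ccr9, which binds Ccl25, by 0.85, and Cxcr6, which binds Cxcl16, by 0.69. Of these, Ccr9 and Cxcr6 lie on chromosome 9, and 21.5% of the exonic bases of Ccr9 are shared with exons of other genes.

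Xcl1, a chemokine that attracts cross-presenting dendritic cells, lies on chromosome 1 at positions 164931644 to 164935527 (minus strand). Its level had a lowest, median and highest value of 0.189, 0.683 and 2.09 CPM in control and 0, 0.585 and 2.58 CPM in knockout. The genotypes overlapped at every time, and the difference did not pass (log2 fold change −0.22, SE 0.26, adjusted p = 0.579). The estimate was −0.58 without the 5 libraries (adjusted p = 0.210) and −0.34 to −0.10 on leaving out single libraries, and it passed in none of these. With 219 counts over all 47 libraries, and 18.7% of its exonic bases shared with another gene, Xcl1 was measured with little precision.

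The transcription factors of cytotoxic T cells that passed the filter both fell, Runx3 by 0.91 and Tbx21 (T-bet) by 0.88. Eomes, a relative of Tbx21, had 13 counts in all, 10 in control and 3 in knockout, and did not pass the filter. Nor did Sh2d1a, an adaptor of the SLAM receptors (50 counts, 33 in control and 17 in knockout), the adhesion molecule Cd2 (203 counts, 139 and 64), the natural killer receptor Klre1 (136 counts, 110 and 26) and Ptprcap, which binds CD45. Without the filter, Klre1 had a log2 fold change of −1.95 (SE 0.36, adjusted p = 5.3e-05), Cd2 of −0.99 (SE 0.32, adjusted p = 0.0398) and Sh2d1a of −0.71 (adjusted p = 0.587). Ptprcap was at 0 in all 47 libraries. All of its exonic bases (100%) are shared with exons of Rps6kb2 and Coro1b, so a 0 there does not measure its expression.

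A further test set each member against the CD3 genes of its own library, since a member can move by more or less than these markers of all T cells. The ratio was log2 CPM less the mean log2 CPM of Cd3d, Cd3e and Cd3g (prior count 2, limma), and 35 members were tested. Relative to CD3, 3 members were lower in knockout and 16 were higher. Since the CD3 genes fell, 98.3% of all genes were higher by this ratio and 0.109% were lower. The lower members were Gzma (−0.37, SE 0.14, limma adjusted p = 0.00762), Gzmb (−0.36, SE 0.14, 0.0129) and Ccl5 (−0.35, SE 0.14, 0.0159). With a prior count of 0.5 they passed narrowly, Gzma at −0.31 (limma adjusted p = 0.0354), Gzmb at −0.30 (0.0449) and Ccl5 at −0.30 (0.0468). Gzmb missed the threshold without the 5 libraries (limma adjusted p = 0.0702), while Gzma and Ccl5 passed.

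Among the members that were higher relative to CD3 were Xcl1 (1.06), Fyb (0.87), Thy1 (0.83), Cd4 (0.75, SE 0.15, limma adjusted p = 1.66e-06), Cxcr6 (0.56), Ptprc (0.50), Itgal (0.50) and Cd160 (0.49). These fell less than the CD3 genes, and Xcl1 did not pass in the first test. Cd8b1 was also higher (0.50), and with a prior count of 0.5 it lost the call, as did Cd6, Cd69, Fasl and Tbx21, which left 11 higher. Cd8a (−0.15, SE 0.14), Itgae (0.04, SE 0.14), Cd7 (0.01, SE 0.15), Klrd1 (0.07, SE 0.16) and Zap70 (0.14, SE 0.18) did not pass.

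**Figure D4:**
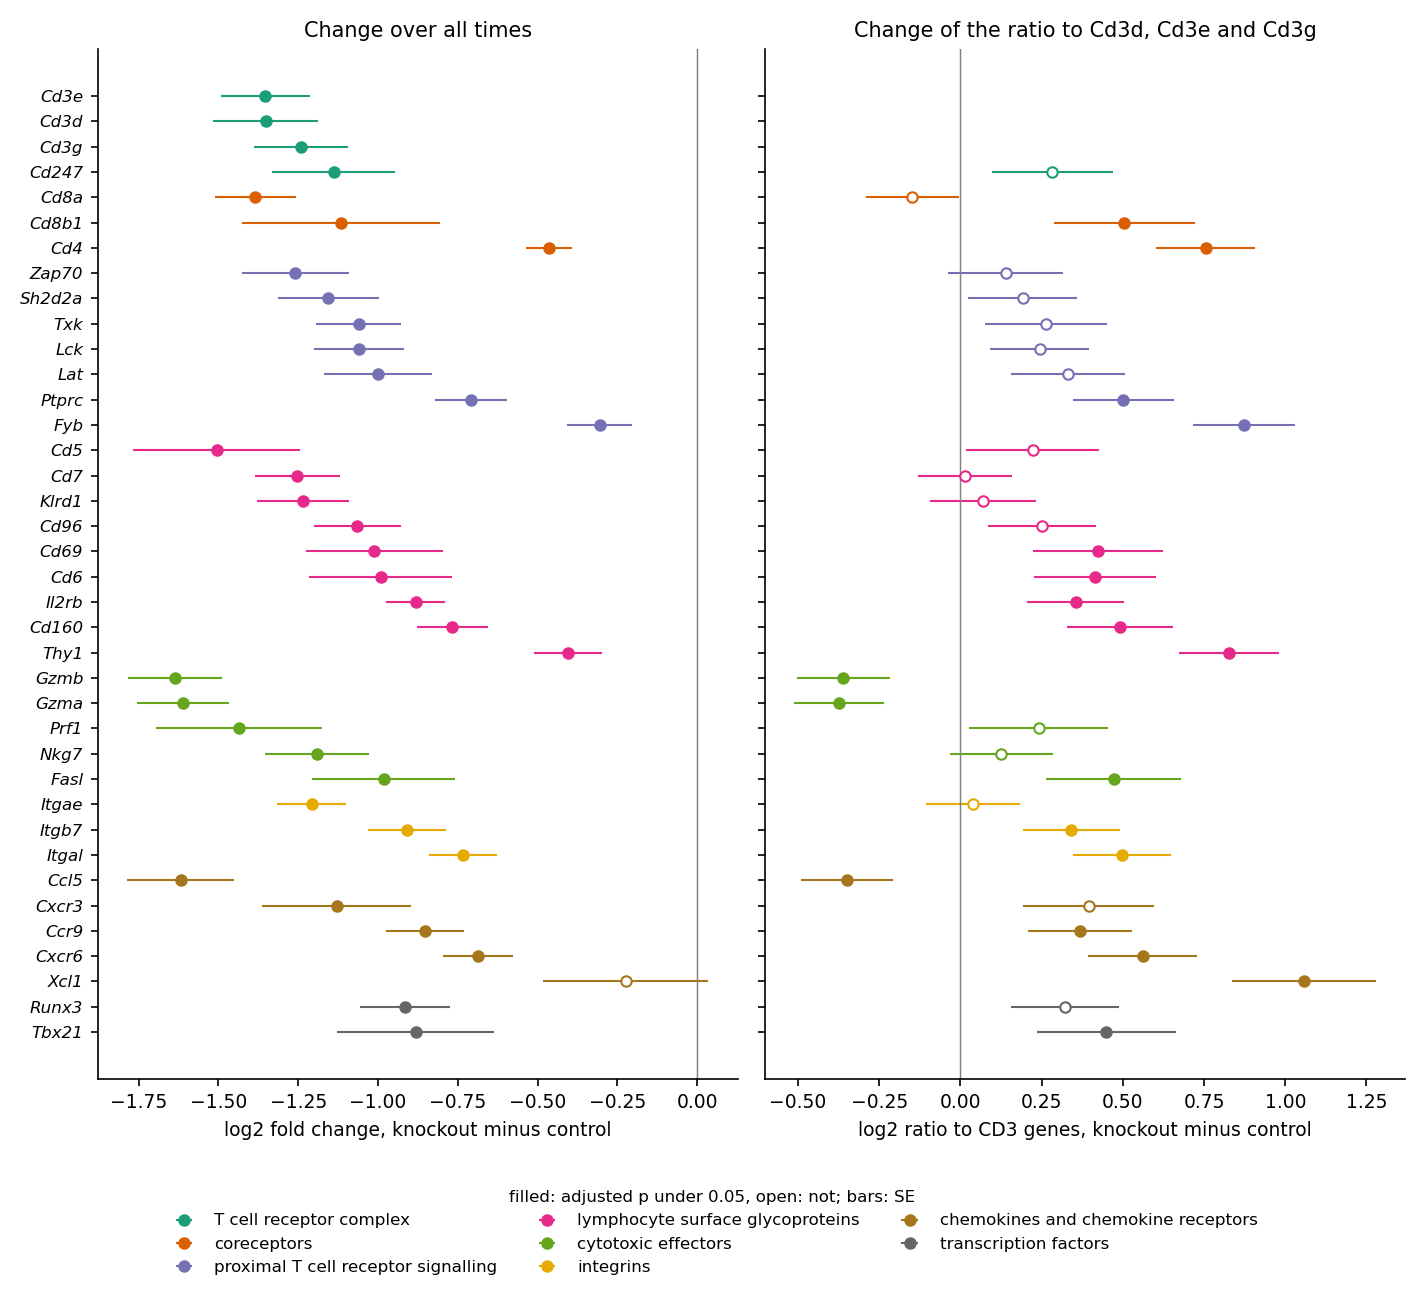
Left, log2 fold change over all times (knockout minus control) of the 38 members, in order of role and coloured by it; right, the change of the log2 ratio of 35 members to Cd3d, Cd3e and Cd3g. Filled points passed at adjusted p under 0.05, open points did not, and bars are SE; 37 filled points lie left of 0 in the left panel, and Gzma, Gzmb and Ccl5 lie left of 0 with filled points in the right panel.

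At single times fewer members passed, and 0 rose at any time. Called lower at CT1 were 16 members (8.07% of all genes), at CT5 9 members (0.339% of all genes) and at CT9 19 members (2.11%). The count was 8 at CT13 (1.35% of all genes), 13 at CT17 (1.41%) and 13 at CT21 (0.754%). The CT9 count includes Cd69 and the CT13 count includes Prf1, both kept by the filter through control libraries alone. Cd8a, Gzma, Gzmb and Itgae were lower at all 6 times, and Cd3e, Cd7, Il2rb and Ccl5 at 5. Estimates lay below 0 in all 38 members at CT1, CT5, CT9 and CT17 and in 37 at CT13 and CT21, where the exception was Xcl1. From CT1 to CT21 in order of time, the median log2 fold change of the members was −0.90, −1.0, −1.26, −0.92, −1.18 and −1.13.

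By the levels themselves, the knockout libraries lay below every control library in 14 members at CT1 (7.48% of all genes), in 18 at CT5 (3.3%) and in 9 at CT9 (5.73%). Later in the cycle this held for 14 members at CT13 (5.89%), 23 at CT17 (5.48%) and 25 at CT21 (2.42%). Taken over all times at once, 0 of the 38 members separated the 47 libraries completely, as did 0.0128% of all genes. The 9 members that separated at CT9 in spite of the low control library were Cd4, Lat, Txk, Ptprc, Cd160, Il2rb, Gzmb, Prf1 and Itgal.

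The estimates of a member varied between times, to an extent that differed among members. Prf1 ranged from −2.47 to −0.77, Cd69 from −1.82 to −0.45, Klrd1 from −1.91 to −0.58 and Cd3d from −1.73 to −0.57, whereas Cd7 kept between −1.41 and −1.09. Cd3e had a log2 fold change from −1.72 at CT21 (SE 0.33, adjusted p = 0.00179) to −1.09 at CT13 (SE 0.34, adjusted p = 0.0618). Cd8a ranged from −1.60 at CT17 (SE 0.31, adjusted p = 0.00119) to −1.19 at CT5 (SE 0.30, adjusted p = 0.044). Gzma ranged from −1.91 at CT17 (SE 0.35) to −1.34 at CT13 (SE 0.35), and Gzmb from −2.02 at CT17 (SE 0.36) to −1.43 at CT5 and CT9. Cd4 passed at CT9 alone (−0.74, SE 0.19, adjusted p = 0.0143), and its estimate was −0.33 at CT1 and CT13, −0.44 at CT5, −0.52 at CT17 and −0.43 at CT21. The test of whether the genotype effect differed between the times called 0 of the 38 members (lowest edgeR adjusted p = 0.607, 0 at an unadjusted p under 0.05, 0 by DESeq2 and by limma-voom), where 1.18% of all genes were called.

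The counts at single times rested on few libraries. At CT5, 0 members passed without control replicate 1, control replicate 4, knockout replicate 2 or knockout replicate 3, and 2 without knockout replicate 1 or 4. At CT9, 5 passed without control replicate 1, 12 without control replicate 2 or knockout replicate 2, 10 without knockout replicate 3 and 1 without knockout replicate 4, whereas 27 passed without control replicate 4. At CT13, 3 passed without control replicate 2, 4 without knockout replicate 1, 2 or 4, and 13 without control CT9 replicate 4, a library of another time. At CT17, 4 passed without control replicate 1, 6 without knockout replicate 2 and 7 without knockout replicate 3. At CT21, 8 passed without knockout replicate 1 and 7 without knockout replicate 2 or 3. Without the 5 libraries, 0 passed at CT1, where a single knockout library was left and was assumed to vary like the other groups, and 14 passed at CT13.

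The levels of the members showed little 24-h rhythm by this test. In control, 0 of 38 passed (20.5% of all genes did), and in knockout also 0 (14.6% of all genes). The lowest adjusted p was 0.0696 in control, for Fyb, the single member with an unadjusted p under 0.05, and 0.194 in knockout, where 0 had an unadjusted p under 0.05 (edgeR). Fyb had a fitted amplitude of 0.29 on the log2 scale with a peak at CT8.6 in control. It passed with DESeq2 (adjusted p = 0.0476) and limma-voom (0.0467), without the 5 libraries (0.0348) and without control CT17 replicate 1 (0.041), control CT21 replicate 4 (0.0397) or knockout CT21 replicate 4 (0.0434), so 1 member was called in each of these. The median amplitude of the members was 0.17 in control and 0.19 in knockout, and that of all genes in control was 0.17. The rhythm differed between genotypes in 0 members (lowest edgeR adjusted p = 0.452, 1 at an unadjusted p under 0.05, 0 by DESeq2 and by limma-voom), and in 1.5% of all genes. The within-group SD of log2 levels, with a median over members of 0.526 in control and 0.428 in knockout, exceeded these amplitudes.

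The bases before the start sites of some members are shown as a description, since E-boxes are the known sites of Bmal1. RefSeq start sites (GRCm38.p6, the assembly of mm10) were available for 26 of the 38 members, with 33 windows of the 250 bases before a start. Searched on both strands were the E-box CACGTG, the RUNX core TGTGGT and the ETS core AGGAAGT, named for families that hold Runx3 and many lymphocyte factors. An E-box was found in 1 member window (3.03%), that of Lat, against 6.02% of 32851 windows of all genes. A RUNX core was found in 14 member windows (42.4%, 13 members) against 14.0% of all windows, and an ETS core in 14 (42.4%, 12 members) against 7.69%. These are matches of letters and not measured binding. Windows of all genes were the only comparison, and a link between a match and the change in the knockout was not tested. The windows of Cd3e (chr9:45009612-45009861, minus strand), Gzma (chr13:113100982-113101231, minus), Gzmb (chr14:56262335-56262584, minus), Prf1 (chr10:61297586-61297835, plus) and Lat (chr7:126369569-126369818, minus) follow from 5′ to 3′, with the searched motifs in capitals.
Cd3e: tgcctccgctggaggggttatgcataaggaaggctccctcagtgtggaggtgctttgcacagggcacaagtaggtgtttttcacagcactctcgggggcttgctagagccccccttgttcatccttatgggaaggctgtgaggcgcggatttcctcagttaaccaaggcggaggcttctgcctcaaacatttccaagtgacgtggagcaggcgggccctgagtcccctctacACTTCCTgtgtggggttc
Gzma: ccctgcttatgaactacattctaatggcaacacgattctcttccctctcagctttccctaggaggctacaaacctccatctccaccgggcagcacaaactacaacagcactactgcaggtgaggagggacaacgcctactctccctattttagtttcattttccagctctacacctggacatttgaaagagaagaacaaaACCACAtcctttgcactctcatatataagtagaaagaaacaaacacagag
Gzmb: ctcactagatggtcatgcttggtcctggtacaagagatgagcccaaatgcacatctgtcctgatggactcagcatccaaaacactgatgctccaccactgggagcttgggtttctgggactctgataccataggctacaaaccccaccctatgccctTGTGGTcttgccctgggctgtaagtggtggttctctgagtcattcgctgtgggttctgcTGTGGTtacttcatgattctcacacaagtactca
Prf1: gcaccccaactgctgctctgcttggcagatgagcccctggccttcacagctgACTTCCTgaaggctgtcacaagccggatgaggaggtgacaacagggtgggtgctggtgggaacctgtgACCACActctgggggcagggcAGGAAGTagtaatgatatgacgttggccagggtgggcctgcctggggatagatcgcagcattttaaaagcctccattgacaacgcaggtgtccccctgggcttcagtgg
Lat: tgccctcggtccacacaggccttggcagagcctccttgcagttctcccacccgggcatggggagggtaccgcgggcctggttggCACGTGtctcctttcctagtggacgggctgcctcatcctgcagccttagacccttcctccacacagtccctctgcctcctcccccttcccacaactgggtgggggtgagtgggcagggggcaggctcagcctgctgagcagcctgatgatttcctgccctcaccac

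The capitals mark an ETS core 18 bases before the start of Cd3e, a RUNX core 50 bases before that of Gzma and the E-box 166 bases before that of Lat. Gzmb held 2 RUNX cores, the farther 93 bases before the start. Prf1 held 2 ETS cores and 1 RUNX core, the latter 130 bases before the start.

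Other genes of T cells, from lists that were not part of the members, also fell. All 7 constant regions of the T cell receptor fell, with a median log2 fold change of −1.04. They included the gamma constant regions Tcrg-C1 (−1.04, SE 0.09, adjusted p = 9.95e-12) and Tcrg-C2 (−1.16), the delta constant region Trdc (−1.15) and the beta constant region Trbc1 (−1.03). Within a library, the ratio of Trdc to the alpha constant region Trac had a median of 1.36 in control (0.771 to 2.7) and 1.34 in knockout (0.756 to 3.57), so that both ranges covered each other's median. Of 38 further T cell and cytotoxic lymphocyte genes listed, 27 passed the filter. Of these 27, 23 fell and 0 rose (median −0.77), where 11.0% of all genes fell. Which genes of these lists passed the filter through control libraries alone was not examined, and the lists were chosen with earlier results known. Among the 23 that fell were Gimap4 (−0.96), Gimap3 (−0.93) and Gimap6 (−0.77), GTPases of lymphocyte survival, and the kinase Fyn (−0.59). Those that did not pass, named after their values were seen, were Gimap5 (−0.26), Tnfrsf9 (−0.42), Tcf7 (−0.14) and Bcl11b (−0.11).

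Genes listed as epithelial factors that act on intraepithelial lymphocytes moved in both directions. The RNA came from whole jejunum, so these changes cannot be assigned to the epithelium or to another cell type. Of 23 tested, 5 fell, 4 rose and 14 did not pass, with a median of −0.04. By smallest p they were Cxcl9 (−0.74, SE 0.10, adjusted p = 2.64e-07) and Cxcl16 (−0.47), ligands of Cxcr3 and Cxcr6, which fell, and the Ccr9 ligand Ccl25 (0.30, from 554 to 690 CPM) and the cytokine Il18 (0.36), which rose. The others that passed, named after their values were seen, were Il7 (−0.87), Cxcl10 (−0.41) and Btnl4 (−0.29), which fell, and Btnl1 (0.17) and Aldh1a1 (0.30), which rose. Il15 (−0.15, SE 0.07, adjusted p = 0.132) and Cdh1, the E-cadherin that CD103 binds (0.06, SE 0.04, adjusted p = 0.303), did not pass. The Ccl25 level was thus higher and the level of its receptor Ccr9 lower in the knockout.

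Markers of other cells of the tissue were measured beside the members. All 8 genes of MHC class II presentation fell (median −1.42), with a summed level of 952 to 5072 CPM in control libraries and 701 to 1702 CPM in knockout libraries. Among them H2-Ab1 fell from 445 to 151 CPM and Ciita, the transactivator of class II, from 45.6 to 17.1 CPM. Of 10 B and plasma cell genes 8 fell (median −1.51), with summed levels of 517 to 1141 CPM in the control libraries and 263 to 1142 CPM in the others. Of 11 genes of absorptive enterocytes 3 fell and 3 rose (median 0.06), with summed levels between 25105 and 45427 CPM in control libraries and between 25199.7 and 49387 CPM in knockout libraries. Of 10 smooth muscle genes 0 fell and 0 rose by edgeR (median 0.00, all with an unadjusted p of at least 0.313), and of 10 genes of endothelium and fibroblasts 4 fell (median −0.17). No listed gene of these sets was at 0 in every library. The part of these cells in the change of the members was not tested.

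**Figure D5:**
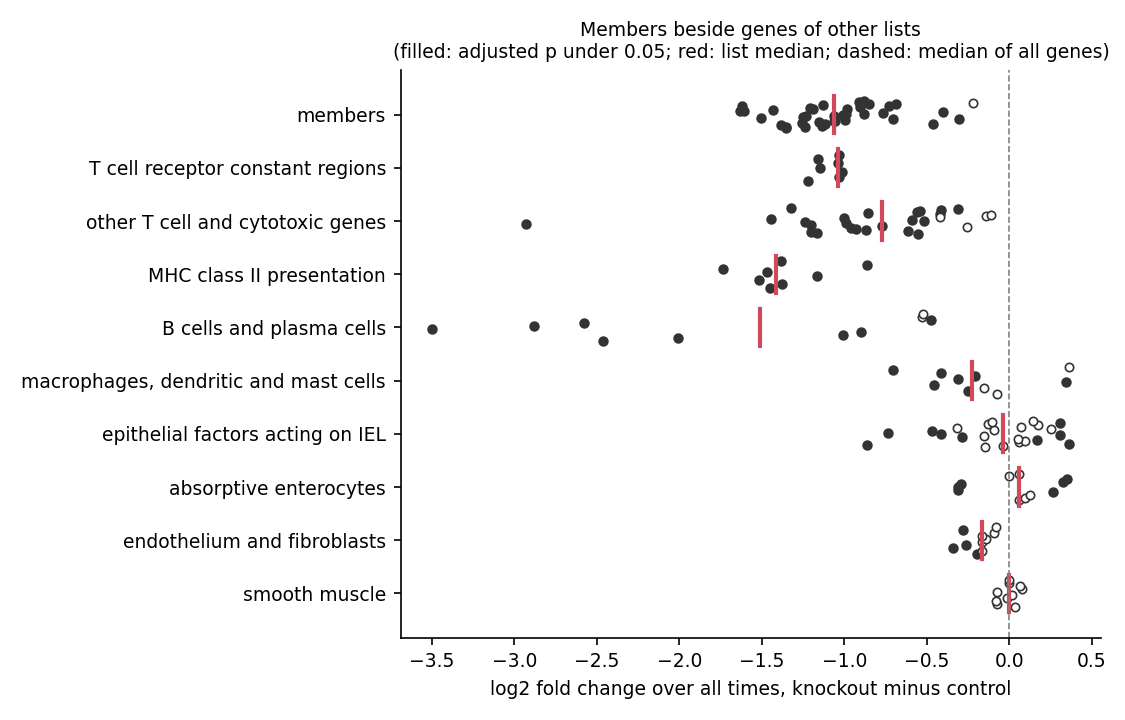
Log2 fold change over all times (knockout minus control, x axis) of the 38 members and of the tested genes of 9 other lists (rows), with a point per gene, filled where adjusted p was under 0.05, a red line at the median of each list and a dashed line at the median of all genes. Members and T cell receptor constant regions lie around −1, while enterocyte and smooth muscle genes lie around 0.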

How the data were processed

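The deposited table holds raw counts per gene from RNA sequencing of mouse jejunum, which the authors left unscaled, 1 column per library. RNA was purified with NucleoSpin and libraries were made with TruSeq Stranded mRNA, per the labels' protocols. The submitters' processing notes name STAR 2.7.5c for mm10, featureCounts 1.4.6, Trimmomatic 0.39, DESeq2 1.22.0, FastQC 0.11.5 and SAMtools 1.3.1. Settings, strand and annotation release were not given in the sources used here.

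Symbols came from GENCODE M21. Of the gene IDs, 54349 matched exactly, 792 with the version ignored and 260 not at all. The counts were tested with edgeR 4.0.16, limma 3.58.1 and DESeq2 1.42.0 in R 4.3.3. Genes were kept by filterByExpr with the 12 groups (at least 10 counts, total of 15 or more) and scaled by TMM. A robust quasi-likelihood model held 1 mean per group (35 residual degrees of freedom), and a second one fitted a 24-h cosine curve to each genotype (41). Adjusted p-values are Benjamini-Hochberg values over all genes from edgeR unless another tool is named, with a threshold of 0.05. The scripts were tested on simulated counts. Alternatives were DESeq2, limma-voom, upper quartile scaling, no filter, no libraries set apart, only the 2 groups compared, another prior count and leaving out each library.

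Genotype and time labels gave the groups, and replicate numbers follow accession order. Nothing in the labels ties each library to a separate mouse, and p-values then cover only the spread between these samples, which may be technical. Values per library were given for 8 members (Cd3e, Cd8a, Cd8b1, Cd4, Gzma, Gzmb, Itgae and Ccl5) and for the 3 largest and 3 smallest changes, and for other lists at most 4 genes with the smallest p. The members and lists were chosen with earlier results of these data known. A count of 0 allows up to 3 counts, or 0.434 to 0.692 per M of a library total, for counting error only. A gene list that was also tested is not reported here.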

Additional observations from a re-analysis of the deposited data

Results flagged for a closer look

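In groups of 4 libraries, the gap of the lowest or highest library to its neighbour was compared with the range of the group for the score and 8 members (Dixon's test at 95%, 99 groups examined). It marked 5 groups, and chance marks about 1 in 20. Control CT9 replicate 4 was low for Cd8a (12.3 CPM, nearest library 31.8 CPM) and for Ccl5 (9.43 CPM, nearest 42.6 CPM). Control CT1 replicate 2 was low for Cd8a (12.2 CPM, nearest 25.9 CPM). Control CT9 replicate 1 was high for Cd4 (19.2 CPM, nearest 12.2 CPM), and knockout CT13 replicate 3 was high for Gzmb (22.02 CPM, nearest 11.96 CPM).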

How the results depend on the processing

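Over the settings other than leaving out single libraries, 108 of 122 values were kept, and 0 reversed under any setting. Kept means the same direction and side of the threshold for a tested value, a count within 1.5 times the reported one, or a score difference within its spread. Among the 38 members that passed the filter, the count lower over all times was 36 or 37 in each. At single times, DESeq2 called 13 at CT13, limma-voom called 0 at CT5 and 9 at CT9, and without a filter 3 passed at CT5 and 10 at CT9. With only the libraries of the 2 groups compared, 1 passed at CT9 and 6 at CT21. Without the 5 libraries, 0 passed at CT1 and 14 at CT13. Members with a rhythm in control numbered 1 with DESeq2, 1 with limma-voom and 1 without the 5 libraries. The cause was not tested. Leaving out each library in turn gave 37 to 37 members over all times, 11 to 17 at CT1, 0 to 12 at CT5, 1 to 27 at CT9, 3 to 13 at CT13, 4 to 19 at CT17 and 7 to 15 at CT21. It gave 0 to 1 members with a rhythm in control, 0 with one in knockout, 0 with a rhythm difference and 0 with an effect that differed between times, and 3 lower and 13 to 20 higher relative to CD3 (16 to 23 in all). The difference in score ranged from −0.98 to −0.88 around −0.92. No paired analysis was possible because replicate numbers follow accession order and pair nothing. Members with about 5 counts per library are limited by depth.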

Other observations

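Of 10 tested genes of macrophages, dendritic cells and mast cells, 6 fell and 1 rose (median −0.23). They included Lyz2 (−0.46), the integrin Itgax (−0.31), the dendritic cell receptor Xcr1, which binds Xcl1 (−0.71, SE 0.17, edgeR adjusted p = 0.00177), and Itgam, which rose (0.34). Of the 5 genes that mark ileum or colon, 2 passed the filter and 0 changed by edgeR (0 at an unadjusted p under 0.05).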
